A study of Bos taurus with 6 samples.

Results

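Imprinted genes are read from only the maternal or only the paternal copy of the chromosome, a choice set by DNA methylation laid down in the egg or the sperm. Many of them act on growth: paternally read genes tend to promote it and maternally read genes tend to restrain it. They lie in clusters that share control regions, and several are very active in the fetus and placenta and quieter in adult tissue. Described here are 10 such genes: MEST, PEG3, PEG10, PLAGL1, IGF2R, GRB10, CDKN1C, SGCE, NNAT and GNAS. They were picked by symbol from the 28200 rows of the deposited count table, with the most-counted row taken where a symbol stood on several, and around the known fall of MEST in the knockout. For that reason every difference between knockout and wild type given for them is a description, and no p-value is printed for it. Where the test over all genes calls them higher or lower, that call is a description as well.

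The RNA was taken from mammary epithelial cells in primary culture, of the Holstein cattle breed. The 3 KLF6 knockout libraries are from cells in which the zinc-finger transcription factor gene KLF6 was disrupted with CRISPR/Cas9, and the 3 wild-type libraries are from unedited cells. Whether replicates of a genotype are separate cultures, animals or edited clones is not stated in the labels, so a p-value here speaks only of how far these libraries spread, and that spread may be technical. Gene counts do not tell maternal from paternal reads, so the imprinted state of these genes was not measured. Whether fewer cells read a gene, or each cell less of it, cannot be told apart in bulk RNA.

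Library totals lay between 17512892 and 18724879 counts. KLF6 itself (chromosome 13, 44597240 to 44605699, in coordinates of a build that the sources do not name) had 224 ± 6.48 CPM in the knockout and 519 ± 34.0 CPM in wild-type libraries (SD, n = 3 each), where CPM is the count per 1e6 counts of the TMM-scaled library. A gene is called higher or lower where the adjusted p of edgeR's quasi-likelihood test over all 13390 tested genes is under 0.05. By that rule 74.6% of all tested genes were called, 37.1% higher and 37.6% lower, so a call alone says little about any gene. The cells read the keratin genes of mammary epithelium strongly: luminal KRT8 averaged 2450 CPM in the knockout against 7564 CPM in wild type, and basal KRT5 averaged 2018 CPM in the knockout against 4679 CPM in wild type.

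Of the 10 genes, 7 had enough counts to be tested. MEST and IGF2R were called lower, PLAGL1, GRB10 and GNAS were called higher, and CDKN1C and NNAT were not called. SGCE, PEG10 and PEG3 were practically unread in either genotype. MEST moved far more than the rest: it held 16.7% of the counts of the 10 genes in knockout libraries and 71.4% in wild-type libraries. The calls follow the contrast used to pick the genes, so their share is not read against the 74.6% of all tested genes. The share of all tested genes whose genotypes do not overlap was not counted. A gap between the libraries of the genotypes is therefore only described below.

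**Figure D1:**
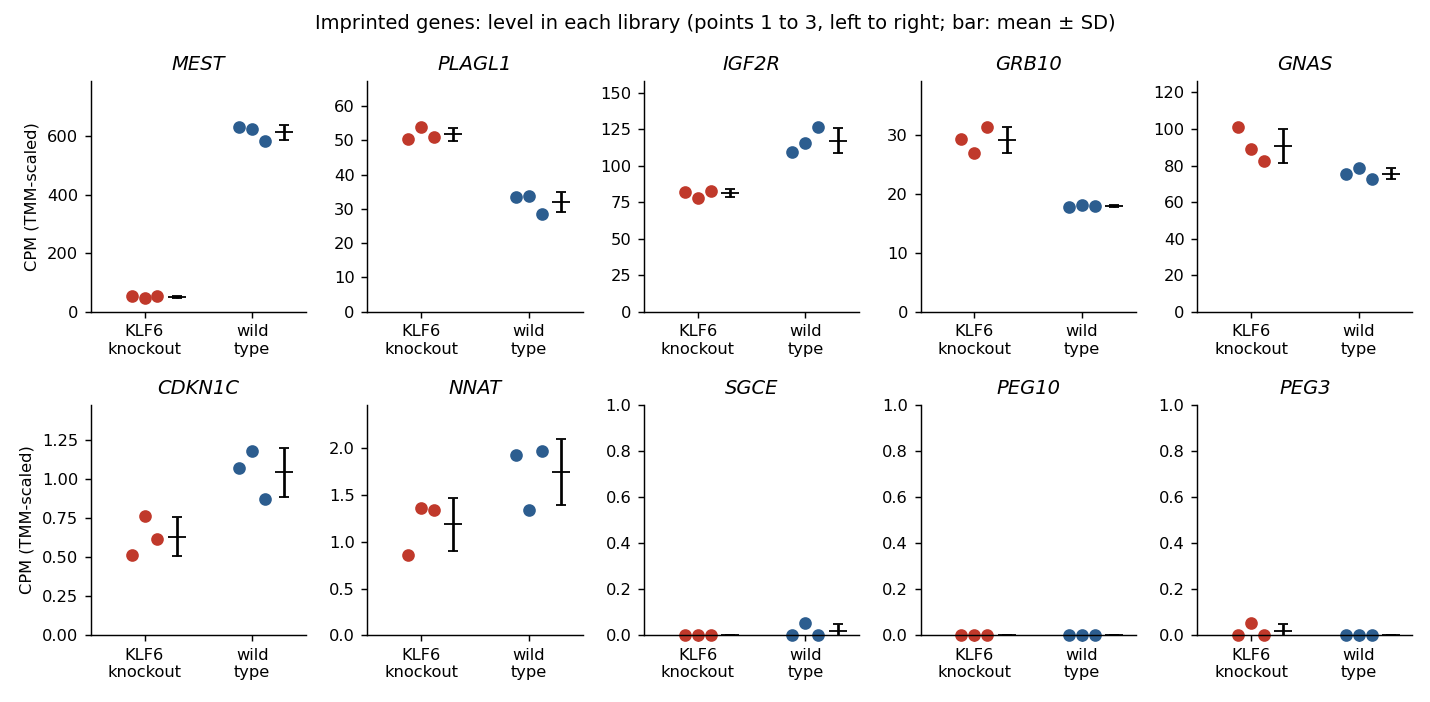
Level of each gene in CPM (vertical axis, starting at 0, with a scale of its own per panel) in the 3 KLF6 knockout libraries (red) and the 3 wild-type libraries (blue), with the mean and SD in black. MEST lies between 48.2 and 53.3 CPM in knockout and between 585 and 631 CPM in wild type, PLAGL1, GRB10 and GNAS are higher in knockout, and SGCE, PEG10 and PEG3 lie at or near 0.

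MEST encodes a protein of the alpha/beta hydrolase family and is paternally read in mouse, human and cattle. In mice it is known for its part in fetal growth and in the expansion of fat tissue. MEST (ENSBTAG00000017223, chromosome 4, 94250156 to 94263796, plus strand) had 928, 886 and 937 counts in knockout replicates 1 to 3, and 11184, 11673 and 10704 counts in wild-type replicates 1 to 3. Scaled, these are 53.3, 48.2 and 52.2 CPM in knockout libraries and 631, 625 and 585 CPM in wild-type libraries. The highest knockout library lies far below the lowest wild-type library, and the spread within each genotype is small beside the gap.

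The mean level of MEST was 51.2 ± 2.69 CPM in the knockout and 614 ± 25.3 CPM in wild-type libraries (SD, n = 3 each). This is a log2 fold change (knockout over wild type) of -3.58 ± 0.05 (SE), or 11.99-fold lower. Among the 13390 tested genes 159, MEST included, had a log2 fold change at or below that of MEST. Falls of at least 8-fold were called for 1.62% of the tested genes. Here and below, errors of levels are SD over 3 libraries and errors of log2 fold changes are SE. The authors' deposited table gives MEST a log2 fold change of -3.57. The microRNA gene bta-mir-335, which lies inside MEST on the same strand, had 1 read over all 6 libraries.

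MEST also stood lower in rank. Per length, it stood at 18.7 ± 0.980 CPM per kb in knockout and 224 ± 9.20 CPM per kb in wild-type libraries (SD, n = 3 each). These levels were at the 68.6 percentile of all tested genes in knockout and the 97.5 percentile in wild type. The 3 knockout libraries still held 2751 MEST reads.

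**Figure D2:**
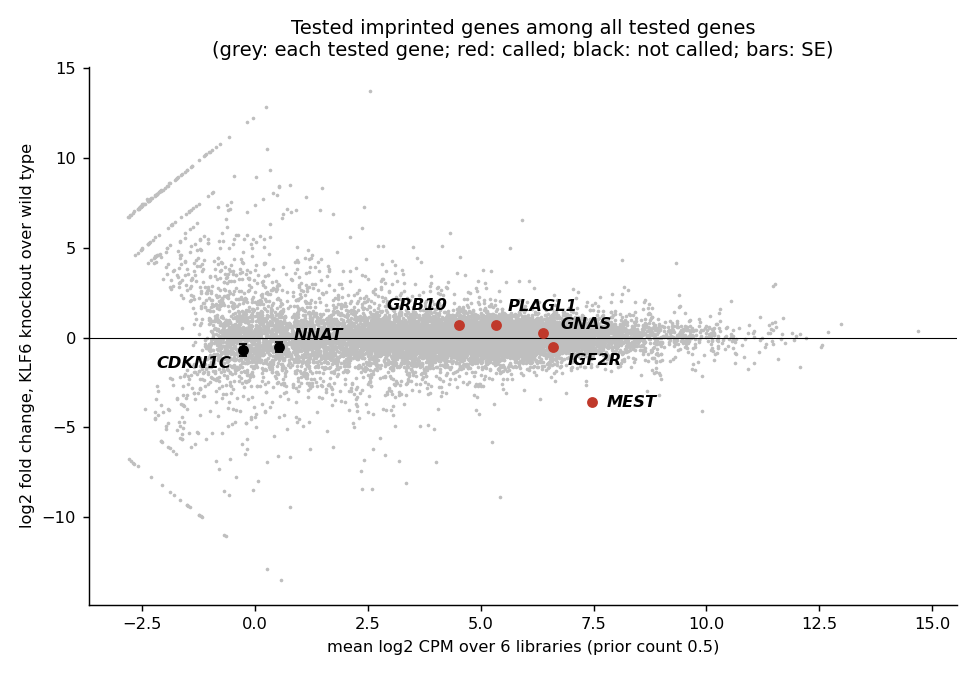
Knockout over wild-type log2 fold change (vertical) against mean log2 CPM over the 6 libraries (horizontal) for all 13390 tested genes (grey), with the 7 tested imprinted genes marked (red called, black not called, bars SE). MEST stands below the main cloud at -3.58, while the other 6 lie between -0.72 and 0.71.

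PLAGL1, also called ZAC1, is a paternally read zinc-finger transcription factor that in mice controls other imprinted genes, and it can restrain the cell cycle. It had 50.4, 53.8 and 51.0 CPM in knockout replicates 1 to 3, and 33.5, 33.8 and 28.6 CPM in wild-type replicates 1 to 3. All knockout libraries were above all wild-type libraries. The log2 fold change of PLAGL1 (ENSBTAG00000026523, chromosome 9, 81363245 to 81407582) was 0.69 ± 0.07 (SE), 1.62-fold higher. Its relative PLAGL2 was called higher too, at 17.4 ± 1.05 CPM in the knockout and 12.2 ± 0.640 CPM in wild type (SD, n = 3 each), while PLAG1 had 23 reads in all and was not tested.

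IGF2R is the receptor that binds insulin-like growth factor 2 and takes it to the lysosome, and it also sorts lysosomal enzymes tagged with mannose 6-phosphate. It is maternally read in mouse and cattle. IGF2R (ENSBTAG00000002402, chromosome 9, 96197493 to 96300017) had 82.4, 78.1 and 83.0 CPM in knockout replicates 1 to 3, and 110, 116 and 127 CPM in wild-type replicates 1 to 3. The genotypes did not overlap, and wild-type replicate 3 was the highest. Its log2 fold change was -0.53 ± 0.06 (SE), 1.44-fold lower.

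GRB10 is an adaptor protein that binds the insulin and IGF receptors and damps their signal, and in most mouse tissues it is maternally read. GRB10 (ENSBTAG00000017086, chromosome 4, 5106065 to 5327013) had 29.4, 26.9 and 31.3 CPM in knockout replicates 1 to 3, and 17.8, 18.1 and 17.9 CPM in wild-type replicates 1 to 3. The wild-type libraries lay almost on a single value, and every knockout library was above them. The log2 fold change was 0.71 ± 0.08 (SE), 1.63-fold higher.

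GNAS encodes the alpha subunit of the stimulatory G protein, which turns on adenylyl cyclase, and its complex locus has imprinted transcripts of several start sites. The most-counted GNAS row (ENSBTAG00000052413, chromosome 13, 57465320 to 57484014) had 101, 88.9 and 82.4 CPM in knockout replicates 1 to 3, and 75.2, 78.6 and 72.8 CPM in wild-type replicates 1 to 3. The genotypes came close without overlapping, since knockout replicate 3 was only a little above wild-type replicate 2. The log2 fold change was 0.26 ± 0.07 (SE). A longer GNAS row with the same end on the minus strand (57465320 to 57532635) had 13 reads over all libraries. How the authors' counting dealt with reads that fall in both rows is not stated, so the GNAS level is less certain.

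CDKN1C, or p57, is a maternally read inhibitor of cyclin-dependent kinases that holds cells out of division. CDKN1C (ENSBTAG00000031184, chromosome 29, 48728420 to 48730918) had 9, 14 and 11 counts in knockout replicates 1 to 3, and 19, 22 and 16 counts in wild-type replicates 1 to 3. The scaled levels, 0.630 ± 0.123 CPM in the knockout and 1.04 ± 0.155 CPM in wild type (SD, n = 3 each), did not overlap between libraries. Its log2 fold change of -0.72 ± 0.34 (SE) did not pass the threshold. CDKN1C was kept for testing through its wild-type libraries, which were the higher ones.

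NNAT encodes neuronatin, a small membrane protein known from the developing brain, and it is paternally read from inside the gene BLCAP. It had 15, 25 and 24 counts in knockout replicates 1 to 3, and 34, 25 and 36 counts in wild-type replicates 1 to 3. In CPM it averaged 1.19 ± 0.282 in knockout and 1.74 ± 0.349 in wild-type libraries (SD, n = 3 each), and the genotypes overlapped. The log2 fold change, -0.55 ± 0.28 (SE), did not pass the threshold. BLCAP covers NNAT (chromosome 13, 66465154 to 66467543) on the opposite strand with 7032 reads in all, and without a stated strand setting reads of the 2 genes cannot be told apart there. The unnamed gene ENSBTAG00000052053 overlaps NNAT on the same strand with 130 reads, so the NNAT level is uncertain.

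The 3 remaining genes gave almost no reads. SGCE encodes epsilon-sarcoglycan, a membrane protein of the dystroglycan complex. PEG10 comes from an ancient retrotransposon and is needed for the placenta in mice, and PEG3 is a large zinc-finger protein that influences maternal behaviour in mice. SGCE (chromosome 4, 11992415 to 12063687) and PEG10 (chromosome 4, 12063954 to 12076656) lie head to head with 266 bases between them, and both are paternally read in mice. PEG10 had 0 reads in all 6 libraries, SGCE had 0 reads in knockout and 1 read in wild type, and PEG3 (chromosome 18, 64099930 to 64118980) had 1 read in knockout and 0 reads in wild type. A count of 0 over a genotype allows up to 3 reads, or 0.0558 CPM in the knockout and 0.0549 CPM in wild type, which covers counting error only. At this depth no difference between genotypes was detectable for them.

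Levels of different genes compare only per length, and the order of the tested genes differed between genotypes. In knockout libraries GNAS was highest at 50.7 ± 5.28 CPM per kb, followed by MEST at 18.7, PLAGL1 at 16.3, IGF2R at 8.96, GRB10 at 6.53, NNAT at 0.944 and CDKN1C at 0.339 CPM per kb. In wild-type libraries MEST led at 224 CPM per kb, ahead of GNAS at 42.2, IGF2R at 12.9, PLAGL1 at 10.1, GRB10 at 4.005, NNAT at 1.39 and CDKN1C at 0.560 CPM per kb. No neighbours in either order had overlapping libraries. By ratio, the closest pair was MEST and PLAGL1 in the knockout, where the lowest MEST library had 17.5 and the highest PLAGL1 library had 16.9 CPM per kb. PLAGL1 and IGF2R thus stood in opposite order in the knockout and in wild type.

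The spread between replicates differed from gene to gene. The SD of log2 CPM within the knockout was 0.08 for MEST, 0.05 for PLAGL1, 0.05 for IGF2R, 0.11 for GRB10 and 0.15 for GNAS, beside a median of 0.08 over all tested genes. In wild type it was 0.06 for MEST, 0.14 for PLAGL1, 0.10 for IGF2R, 0.01 for GRB10 and 0.06 for GNAS, beside a median of 0.11. CDKN1C and NNAT, with few reads, spread more: CDKN1C had SDs of 0.27 in knockout and 0.21 in wild type, and NNAT 0.36 in knockout and 0.30 in wild type.

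Chromosomes differed in their median log2 fold change, from -0.82 on chromosome 14 to 0.48 on chromosome 20, so each gene is given beside its own. The median log2 fold change of tested genes was 0.07 on chromosome 4 (MEST and GRB10), 0.16 on chromosome 9 (PLAGL1 and IGF2R), 0.08 on chromosome 13 (GNAS and NNAT) and -0.26 on chromosome 29 (CDKN1C). With that median taken out, the log2 fold change was -3.66 for MEST, 0.63 for GRB10, 0.53 for PLAGL1, -0.70 for IGF2R, 0.19 for GNAS, -0.62 for NNAT and -0.45 for CDKN1C. PLAGL1 and IGF2R moved in opposite directions on the same chromosome, as did MEST and GRB10.

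The genes around MEST did not share the size of its fall. Of 10 tested genes within 500 kb of MEST, 6 were called lower and 2 higher, with a median log2 fold change of -0.30, beside 37.6% lower and 37.1% higher among all tested genes. COPG2, a coat protein gene that lies 0.212 kb from the end of MEST and is itself imprinted in some mammals, had 24.7 ± 1.96 CPM in the knockout and 29.1 ± 0.786 CPM in wild type (SD, n = 3 each). The log2 fold change of COPG2 was -0.24 ± 0.08 (SE), and the call was lost without knockout replicate 1 (-0.19, edgeR adjusted p = 0.0601). On the other side, CEP41, which serves the cilium, was not called (-0.26 ± 0.14).

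Farther from MEST the values were mixed. The carboxypeptidase gene CPA4, which is imprinted in humans, fell to 3.03 ± 0.0385 CPM in knockout, against 9.99 ± 1.12 CPM in wild type (log2 fold change -1.72 ± 0.15). Its relative CPA5 had a log2 fold change of -1.31 ± 0.42, a call lost without knockout replicate 3 (-0.96, edgeR adjusted p = 0.0594) and by DESeq2 (adjusted p = 0.0595). KLF14, a Kruppel-like factor gene that is imprinted in humans and mice, had 4.20 ± 0.726 CPM in the knockout and 6.71 ± 1.36 CPM in wild type (-0.68 ± 0.18). KLHDC10 was lower (-0.35 ± 0.08), and TMEM209 (0.34 ± 0.08) and ZC3HC1 (0.57 ± 0.06) were higher. The unnamed gene ENSBTAG00000049855, 470 kb away, was lower (-2.23 ± 0.29). This gene, at 0.629 CPM in the knockout, and CPA5, at 0.374 CPM, were kept for testing through their wild-type libraries.

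The neighbour of GRB10 differed more than GRB10 itself. DDC, the decarboxylase that makes dopamine and serotonin, lies 9.42 kb from GRB10 and in mice is imprinted together with it in the heart. It stood at 33.7 ± 0.479 CPM in knockout libraries (SD, n = 3) and had 0 reads in wild type. Against 3 reads over the wild-type libraries this is at least 614.5-fold higher. FIGNL1, 127 kb from GRB10, rose to 20.0 ± 1.22 CPM in knockout, against 8.99 ± 0.979 CPM in wild type. In the SGCE and PEG10 region the collagen gene COL1A2, 179 kb from SGCE, had 5.18 ± 0.549 CPM in knockout libraries and 0 reads in wild type, at least 94.38-fold higher. DDC and COL1A2 were kept for testing through their knockout libraries, so their calls as higher support nothing further. CASD1, between COL1A2 and SGCE, was at -0.37 ± 0.16, a call that was lost under 10 of the alternative settings, among them without each library in turn except wild-type replicate 2. PPP1R9A, on the far side of PEG10, had 0 reads in all libraries.

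In the CDKN1C region on chromosome 29, 11 genes were tested, of which 8 were called lower and 3 higher, beside 37.6% and 37.1% of all tested genes. On chromosome 29 as a whole, 204 of 391 tested genes were called lower and 99 higher. SLC22A18, a transporter gene 15.8 kb away that is maternally read in humans and mice, fell to 0.888 ± 0.367 CPM in knockout, against 4.27 ± 0.364 CPM in wild type. NADSYN1 was lower as well (-2.59 ± 0.08). NAP1L4, a histone chaperone gene, had 314 ± 1.35 CPM in the knockout and 214 ± 8.39 CPM in wild type, and the tetraspanin gene CD81 at 333 ± 8.23 CPM in the knockout and 94.4 ± 2.88 CPM in wild type. TSSC4, the nearest tested gene on the other side, was at 0.21 ± 0.07, a call lost without wild-type replicate 2 (0.16, edgeR adjusted p = 0.0538).

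Around the other genes, 6 of the 10 nearest tested named neighbours were called higher, 1 was called lower and 3 were not called. Beside PLAGL1, LTV1 was at 0.91 ± 0.08 and SF3B5 at 0.49 ± 0.06, both called higher, against 0.69 for PLAGL1. Beside IGF2R, PNLDC1 (-0.42 ± 0.33) and MAP3K4 (0.16 ± 0.07) were not called. Beside GNAS, NELFCD was lower (-1.01 ± 0.06) and NPEPL1 was not called (-0.04 ± 0.08). SRC (0.40 ± 0.06) and CTNNBL1 (0.38 ± 0.06), on the sides of NNAT, were higher. Beside the unread PEG3, the zinc-finger gene ZFP28 (0.44 ± 0.10) and AURKC (2.17 ± 0.47) were higher. AURKC, at 0.761 CPM in the knockout and 0.165 CPM in wild type, was kept for testing through its knockout libraries. Over all regions, 33 of 74 tested neighbours were called higher and 21 lower, with a median log2 fold change of 0.14, beside 37.1%, 37.6% and -0.01 over all tested genes.

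Other genes known to be imprinted in at least some mammals went both ways. Of 58 listed, 53 were in the table and 25 were tested, of which 10 were called higher and 12 lower, beside 37.1% and 37.6% of all tested genes. Their median log2 fold change was -0.07. The other 28 had at most 35 reads over all libraries, and 15 of them had 0 reads, among them DLK1, RTL1, ZIM2 and ZDBF2. IGF2, the growth factor bound by IGF2R, had 7 reads in all.

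At least 2-fold changes were called for 4 of these genes in each direction, beside 10.8% higher and 11.5% lower among all tested genes. Higher in knockout were DDC, the phospholipid flippase gene ATP10A (1.90 ± 0.11), RASGRF1, an exchange factor for RAS (1.85 ± 0.15), and CD81 (1.82 ± 0.05). DDC was kept for testing through its knockout libraries. Lower were TP73, a relative of p53 (-4.02 ± 0.16), the matrix proteoglycan gene DCN (-2.31 ± 0.06), SLC22A18 (-2.25 ± 0.25) and CPA4. TP73 fell to 1.04 ± 0.294 CPM in knockout, against 17.0 ± 0.161 CPM in wild type. In the cluster of chromosome 21, SNRPN, a splicing protein gene, had 144 ± 9.52 CPM in the knockout and 90.8 ± 3.50 CPM in wild type, and UBE3A, a ubiquitin ligase gene, at 85.8 ± 2.45 CPM in the knockout and 90.0 ± 2.57 CPM in wild type. SNRPN was called (0.66 ± 0.05) and UBE3A was not (-0.07 ± 0.05).

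**Figure D3:**
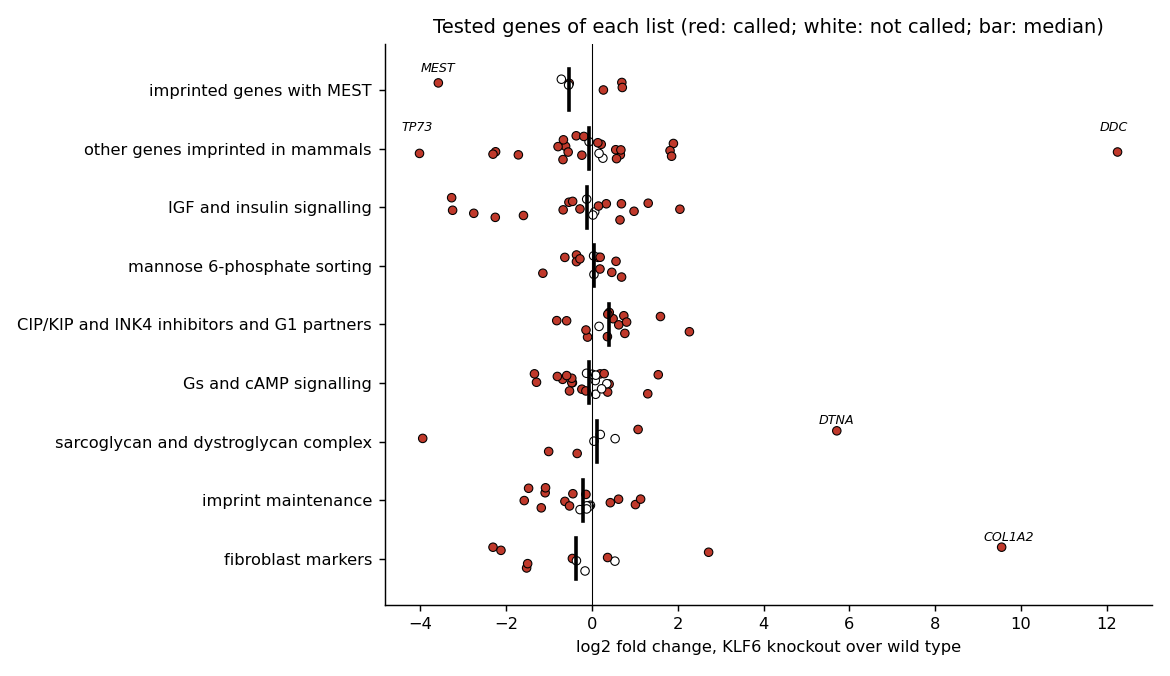
Knockout over wild-type log2 fold change (horizontal) for each tested gene of 9 lists (rows; red called, white not called), with the median of each list as a bar. The lists go both ways, with medians from -0.53 for the imprinted genes with MEST to 0.40 for the cell cycle inhibitors and their partners. The former are 7 tested genes picked around the known fall of MEST, so their median is not to be ranked against the other lists.

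IGF2R and GRB10 both act on insulin-like growth factor signalling, where GRB10 rose and IGF2R fell. Of 19 tested genes of that pathway, 7 were called higher and 9 lower, with a median of -0.12, beside 37.1% higher and 37.6% lower of all tested genes. The receptor gene IGF1R had 84.4 ± 2.90 CPM in the knockout and 80.8 ± 7.33 CPM in wild type and was not called. The receptor substrates IRS1 and IRS2 were lower, IRS1 at -0.54 ± 0.05 and IRS2 at -1.60 ± 0.16. GRB7, of the same adaptor family as GRB10, fell to 8.56 ± 0.924 CPM in knockout, against 57.9 ± 5.66 CPM in wild type, and GRB14 had 0 reads.

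The binding proteins of these growth factors split. IGFBP2 rose to 3043 ± 111 CPM in knockout, against 736 ± 88.3 CPM in wild type, and IGFBP7 rose by 1.31 ± 0.05 on the log2 scale. IGFBP3 fell by 2.26 ± 0.24 and IGFBP5 fell by 3.25 ± 0.43 on the log2 scale. IGF2BP3, an RNA-binding protein that binds IGF2 messenger RNA, was at -3.27 ± 0.30. IGFBP5 had 11, 8 and 0 counts in knockout replicates 1 to 3, and IGF2BP3 had 4, 13 and 9. Both were kept for testing through their wild-type libraries, which were the higher ones. Downstream, the kinase gene AKT1 was higher (0.98 ± 0.05), as were the adaptor gene GRB2 (0.65 ± 0.05) and IGFBP4 (0.69 ± 0.09).

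For the sorting role of IGF2R, 13 genes of the mannose 6-phosphate route were tested, of which 6 were called higher and 5 lower (median 0.04), beside 37.1% and 37.6% of all tested genes. M6PR, the smaller receptor of the same tag, rose to 212 ± 4.89 CPM in knockout, against 144 ± 8.48 CPM in wild type, while IGF2R fell. GNPTAB, which makes the tag, was at -0.36 ± 0.07. The clathrin adaptor gene AP1M1 was higher (0.69 ± 0.06), as were GGA2 (0.46 ± 0.06) and AP1G1 (0.19 ± 0.05). The sorting receptor gene SORT1 was lower (-1.15 ± 0.09), as were VPS26A (-0.63 ± 0.05) and GGA1 (-0.36 ± 0.07).

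Among the kinase inhibitors related to CDKN1C and their G1 partners, 10 of 15 tested genes were called higher and 4 lower (median 0.40), beside 37.1% and 37.6% over all tested genes. CDKN1B, or p27, fell to 42.7 ± 2.43 CPM in knockout, against 75.6 ± 3.52 CPM in wild type. CDKN1A, or p21, was the best read of the 3 related inhibitors, at 153 ± 2.45 CPM in the knockout and 165 ± 2.55 CPM in wild type. Its call (-0.10 ± 0.04) was lost under 9 alternative settings. The cyclin genes CCND2 (2.27 ± 0.17) and CCNE1 (1.60 ± 0.10), the RB1 relative RBL1 (0.81 ± 0.09) and the kinase gene CDK2 (0.77 ± 0.07) were higher, while CCND3 was lower (-0.59 ± 0.05). CCND1 was at -0.14 ± 0.05, a call lost without knockout replicate 2, knockout replicate 3 or wild-type replicate 2 and by DESeq2 (adjusted p from 0.0642 to 0.195).

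Of 24 tested genes of stimulatory G protein and cAMP signalling, the route that GNAS opens, 6 were called higher and 11 lower (median -0.06), where all tested genes had 37.1% higher and 37.6% lower. The adenylyl cyclase genes split, with ADCY9 (1.54 ± 0.17) and ADCY7 (0.36 ± 0.10) higher and ADCY6 lower (-0.81 ± 0.07). The phosphodiesterase gene PDE4D was higher (1.30 ± 0.23) and PDE7A was lower (-1.34 ± 0.11). GNAL, the closest relative of GNAS, was at 0.690 ± 0.343 CPM in the knockout and 1.70 ± 0.366 CPM in wild type (-1.29 ± 0.35). GNAL was kept for testing through its wild-type libraries. The beta subunit genes GNB1 and GNB4 moved apart, GNB1 at 0.40 ± 0.05 and GNB4 at -0.69 ± 0.08.

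SGCE was unread, and only some of the genes of its complex had enough reads to be tested. Of 8 tested sarcoglycan and dystroglycan complex genes, 2 were called higher and 3 lower (median 0.12), where all tested genes had 37.1% higher and 37.6% lower. SGCB, beta-sarcoglycan, rose to 27.6 ± 1.78 CPM in knockout, against 13.1 ± 1.14 CPM in wild type, and DTNA, a dystrobrevin, to 5.12 ± 0.730 CPM in knockout, against 0.0916 ± 0.0321 CPM in wild type. DTNA was kept for testing through its knockout libraries. The dystrophin relative UTRN (-1.01 ± 0.09) and DTNB (-0.35 ± 0.09) were lower. DAG1, dystroglycan, was not called (0.04 ± 0.06), and SGCD had 0 reads. Of the retrotransposon-derived relatives of PEG10, 4 were tested, with RTL5 (1.43 ± 0.30) and PNMA1 (0.72 ± 0.28) higher and RTL6 lower (-0.54 ± 0.11). The PNMA1 call was lost without each of 4 libraries and by DESeq2 (adjusted p from 0.0657 to 0.126).

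Of 18 tested genes that keep or erase imprints through DNA and histone methylation, 4 were called higher and 9 lower (median -0.21), beside 37.1% and 37.6% of all tested genes, so their share of calls was near the background. DNMT1, which copies DNA methylation at replication, rose to 154 ± 6.37 CPM in knockout, against 100.5 ± 6.39 CPM in wild type. Its partner UHRF1 rose to 99.2 ± 2.15 CPM in knockout, against 49.2 ± 3.37 CPM in wild type, and the histone methylase gene EZH2 (1.13 ± 0.05) and the corepressor gene TRIM28 (0.43 ± 0.04) were higher. The demethylating enzyme genes TET1 (-1.58 ± 0.40), TET2 (-1.08 ± 0.09) and TET3 (-1.48 ± 0.15), the histone methylase gene SETDB1 (-1.18 ± 0.07) and the DNA methylase gene DNMT3A (-1.09 ± 0.08) were lower. TET1, with 6, 20 and 5 counts in knockout replicates 1 to 3, was kept for testing through its wild-type libraries. ZFP57, which protects imprints in the early mouse embryo, was lower (-0.63 ± 0.08), and CTCF, which insulates imprinted clusters, was not called (-0.06 ± 0.06). DNA methylation was not measured.

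MEST is named for its expression in the mesoderm of the mouse embryo, so fibroblast markers are given beside it. Of 16 listed, 11 were tested, with 3 called higher, COL1A2 among them, and 5 lower, beside 37.1% and 37.6% of all tested genes. COL1A2 was kept for testing through its knockout libraries. The summed level of the fibroblast markers ranged from 30455 to 30723 CPM in knockout and from 25631 to 26896 CPM in wild type. Nearly all of it was FN1, which epithelial cells also read. Without FN1, a sum taken after the values were seen, the level ranged from 718 to 762 CPM in knockout and from 3091 to 3256 CPM in wild type. Most of this sum came from DCN and S100A4, so it does not speak for the list as a whole. DCN had 229 ± 6.27 CPM in the knockout and 1134 ± 106 CPM in wild type. S100A4 had 462 ± 31.1 CPM in the knockout and 2011 ± 181 CPM in wild type. Of the markers with too few reads to be tested, TWIST1 and COL6A3 were at 0 in all libraries. THY1 had 4 reads, PDGFRB 6 reads and LUM 11 reads in all. Among the tested markers, COL1A1 was called lower (-0.46), a call lost under 4 alternative settings. The part of these markers in the fall of MEST was not tested.

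Markers of the other cell types were also compared, and their calls stand beside 37.1% higher and 37.6% lower among all tested genes. Of 12 tested luminal markers 2 were called higher and 7 lower, with a summed level from 4159 to 4332 CPM in knockout and from 11062 to 12393 CPM in wild type. Of 10 tested basal markers 3 were called higher and 7 lower, with sums from 5320 to 5403 CPM in knockout and from 8981 to 9188 CPM in wild type. Single genes differed widely within these sums. Log2 fold changes ran from -2.89 to 1.80 for the luminal list and from -8.90 to 6.52 for the basal list. Endothelial markers (3 higher and 2 lower of 5) summed to at most 55.9 CPM in the knockout and 16.1 CPM in wild type, leukocyte markers (2 higher and 1 lower of 4) to at most 21.5 CPM in the knockout and 15.6 CPM in wild type, and adipocyte markers (1 higher and 1 lower of 3) to at most 9.92 CPM in the knockout and 5.14 CPM in wild type. KDR and CLDN5, PTPRC and LYZ, and ADIPOQ were at 0 in all libraries. The tested markers were not: their log2 fold changes ran from -3.85 to 7.11 for the endothelial list. They ran from -4.92 to 2.44 for the leukocyte list and from -3.26 to 1.98 for the adipocyte list. The part of these markers in the values of the 10 genes was not tested.

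The genes closest to MEST in log2 CPM over the 6 libraries, by Euclidean distance, were SAT1, MAL2, the unnamed locus ENSBTAG00000051191, SREBF1 and CXCL5. SAT1, which acetylates polyamines, was at distance 1.22, with 64.1 ± 0.447 CPM in the knockout and 406 ± 42.8 CPM in wild type. MAL2, a protein of apical transport, was at distance 1.51, with 69.4 ± 3.38 CPM in the knockout and 368 ± 7.74 CPM in wild type. SREBF1, which drives lipid synthesis genes, and the chemokine gene CXCL5 were both at distance 2.37. MEST had the larger fall beside each of them, at -3.58 against -2.66 for SAT1, -2.40 for MAL2, -3.09 for the unnamed locus, -1.73 for SREBF1 and -1.84 for CXCL5. The unnamed locus spread widely, at 243, 235 and 629 CPM in wild-type replicates 1 to 3. Its log2 fold change had an SE of 0.56, so its difference from MEST is within that error. The points share 6 libraries and the split by genotype, so this likeness describes only that pattern.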

How the data were processed

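Gene expression was measured in 3 KLF6 knockout and 3 wild-type libraries (Ion Total RNA-Seq Kit v2, per the labels' protocols). The authors deposited raw counts per gene, and HISAT2 2.0.5 and featureCounts 1.5.0-p3 are named in the submitters' processing notes, without settings; build and strand use are not named in these sources. The authors' deposited table holds a normalized signal (counts over a factor per library), log2 fold changes and p-values for genes that passed their threshold, and from it only log2 fold changes are quoted.

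Counts were tested with edgeR 4.0.16 (R 4.3.3; limma 3.58.1 and DESeq2 1.42.0 as alternatives): TMM scaling, filterByExpr with a minimum count of 10 and minimum total of 15, the robust quasi-likelihood test and Benjamini-Hochberg adjustment over 13390 genes. The SE of a log2 fold change is its size divided by the root of F. The procedure was tested on simulated data with 200 changed genes. Levels per length use the gene length in the count table.

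The genes and lists were chosen with earlier results of these data known. Named beside the 10 genes were the nearest tested named gene on each side, all within 500 kb of MEST, up to 4 called genes per direction of each list, listed imprinted genes called at 2-fold or more, some luminal, basal and fibroblast markers and the 5 genes nearest MEST (prior count 0.5). Of the endothelial, leukocyte and adipocyte markers, only genes at 0 were named. Genes named outside that rule, for a count of 0 or for their role, were chosen after their values were seen. No sequence is printed, since none was used here. Some listed genes are counted in their list but not reported here by name.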

Additional observations from a re-analysis of the deposited data

How the results depend on the processing

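Over 15 alternatives (scaling, filter, DESeq2, limma-voom, replicate block, each library left out, rows of a symbol summed, chromosome medians taken out) the log2 fold change of MEST lay between -3.66 and -3.54, and MEST, IGF2R, PLAGL1, GRB10 and GNAS kept their direction, and their calls in the 14 alternatives with a test. These genes were picked with this contrast known, so a kept call describes the processing and supports nothing further. CDKN1C was called when libraries were scaled by total alone (-0.76) and NNAT without wild-type replicate 2 (-0.70). With a library left out, 3 of the 10 genes were called higher and 2 to 3 lower, 9 to 10 other imprinted genes higher and 9 to 12 lower, 29 to 33 neighbours higher and 18 to 22 lower, and 4746 to 5115 of all genes higher and 4746 to 5019 lower. Without length, in CPM alone, MEST ranked 4 among the tested genes in knockout instead of 2. The shared replicate numbers did not pair the libraries: the correlations of their deviations were -0.0259, 0.0571 and -0.0175. With the replicate block 4938 genes were called higher and 4956 lower, and the log2 fold change of MEST was -3.58. CDKN1C and NNAT rest on at most 36 reads a library, and for SGCE, PEG10 and PEG3 the depth shows only that levels were under the floor.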
